A study of Mus musculus with 53 samples.

Results

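The paraventricular nucleus (PVN) of the hypothalamus was compared between obese *Nnat*+/-p and wild-type (*Nnat*+/+) female mice fed chow. *Nnat*+/-p mice lack *Nnat* on the allele inherited from the father, which is the allele that is expressed, in all tissues. All mice were C57BL/6 and had a nucleus cut by laser from brain sections. The study's methods give an age of 13 to 14 weeks for this, in a sentence that names male mice only. The 7 libraries used were chosen by sex, nucleus, diet, genotype and labelled weight from 53 in the series: 3 obese *Nnat*+/-p (replicates 6, 8 and 12, of 32.7, 33.35 and 31.5 g) and 4 wild type (replicates 1 to 4, of 24.1, 24.1, 24.2 and 24.6 g). A female *Nnat*+/-p mouse counted as obese over 30 g. Wild-type replicate 5 and obese replicate 7, with 2302 and 812815 counts in all, were left out for their low totals. The 3 non-obese *Nnat*+/-p females (replicates 9, 10 and 11) shared the fit, and 3 wild-type and 4 obese *Nnat*+/-p males on chow were an independent set of mice.

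The PVN holds the neurons that release vasopressin, oxytocin, corticotropin-releasing hormone and thyrotropin-releasing hormone, and it integrates signals of energy balance. Neuronatin, the product of *Nnat*, is a small membrane protein of the endoplasmic reticulum that is abundant in neurons and endocrine cells. An earlier report gave it a putative role in the processing of the insulin precursor. The study proposes that its loss has no major effect on peptide processing in the pancreas. Neurons that fire repeatedly switch on the immediate early genes, which encode short-lived transcription factors and synaptic regulators, and through factors such as CREB raise the output of neuropeptide precursors and of proteins of the secretory pathway. In laser-cut tissue, fewer cells of a type and less RNA per cell cannot be told apart.

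The 7 libraries held 6219365 to 23906593 counts. Wild-type replicates 2 and 3 held the fewest, 6219365 and 8417480, and the other 5 held 11026573 or more. Values are CPM, each gene's share of the scaled library total, after correction by edgeR's TMM factors, and differences are log2 fold changes of obese *Nnat*+/-p over wild type with their standard error. A gene was called at an adjusted p under 0.25, the threshold that the study used. No label says that the libraries came from separate mice, and replicates 1 and 2 carry the same weight, so p-values measure the spread between these libraries. Wild-type replicates 2 and 3 stood apart before any comparison. Across the genes tested, their median Pearson correlation of log2 CPM with the other libraries was 0.771 and 0.820, and that of the other wild-type and obese libraries was 0.908 to 0.927. Protein-coding genes took 57.0% and 61.9% of their counts, against 69.2% to 76.2% in the other 5, and long intergenic noncoding RNAs took 10.6% and 6.92%, against 2.42% to 4.71%. *Meg3*, an imprinted noncoding RNA of the nucleus singled out after its values were seen, reached 4776 and 3852 CPM in them and 591 to 1185 CPM in the other 5. Non-obese replicate 10, which entered the filter, scaling and spread of the shared fit but neither group compared, had a median correlation of 0.705 with the others. It held 6702396 counts, so the libraries that stood apart were also shallow, and the part of depth was not tested. Values without wild-type replicates 2 and 3 are given for many of the single genes, and without them every named gene tested other than *Nnat* had an adjusted p of 1.00 in edgeR. That fit keeps only replicates 1 and 4 as wild type and still holds replicate 10. With all libraries 2 genes were called, and without replicates 2, 3 and 10 together 8 were.

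The labels of sex held in all 7 libraries. *Xist*, expressed from the inactive X chromosome, lay at 93.1 to 183 CPM, and the Y-linked genes *Ddx3y*, *Eif2s3y*, *Kdm5d* and *Uty* did not exceed 0.184 CPM, although the capture protocol names male mice only. The defining genes of PVN neurons were expressed in every library. *Sim1*, a transcription factor required for PVN neurons, was at 200, 109, 106 and 191 CPM in wild type and at 166, 160 and 191 CPM in obese mice. The summed level of 8 PVN neuron markers was 2881 to 4025 CPM in wild type and 3099 to 4191 CPM in obese mice. It was lowest in wild-type replicates 2 and 3, at 2881 and 2983 CPM. The summed level of markers of the neighbouring hypothalamic nuclei was 22.9 to 56.2 CPM in wild type, highest in replicate 2, and 15.4 to 21.2 CPM in obese mice. Ependymal and tanycyte markers summed to 55.5 CPM in replicate 2 and to 6.25 to 17.9 CPM in the other libraries compared. Whether the tissue cut differed between libraries was not tested.

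None of the 8 PVN neuron markers differed at an unadjusted p under 0.05, against 0.775% higher and 2.40% lower over all genes. *Avp*, which encodes vasopressin, was at 1333, 575, 629 and 717 CPM in wild type and 917, 954 and 1481 CPM in obese mice. *Oxt*, which encodes oxytocin, was at 1142, 1190.2, 1273 and 1586 CPM in wild type and 810.3, 1116 and 1239 CPM in obese mice. The groups overlapped for both. The log2 differences were 0.46 ± 0.39 for *Avp* and -0.30 ± 0.30 for *Oxt*, with adjusted p = 1.00 for each. Those of *Crh* and *Trh*, the precursors of corticotropin- and thyrotropin-releasing hormone, were -0.07 ± 0.32 and 0.05 ± 0.33. For the transcription factors they were 0.19 ± 0.28 for *Sim1*, -0.07 ± 0.29 for *Otp*, -0.11 ± 0.28 for *Pou3f2* and 0.34 ± 0.24 for *Arnt2*. The groups did not overlap for *Arnt2*, where obese mice were higher, among 3.45% of all genes tested with such a separation upward.

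**Figure D1:**
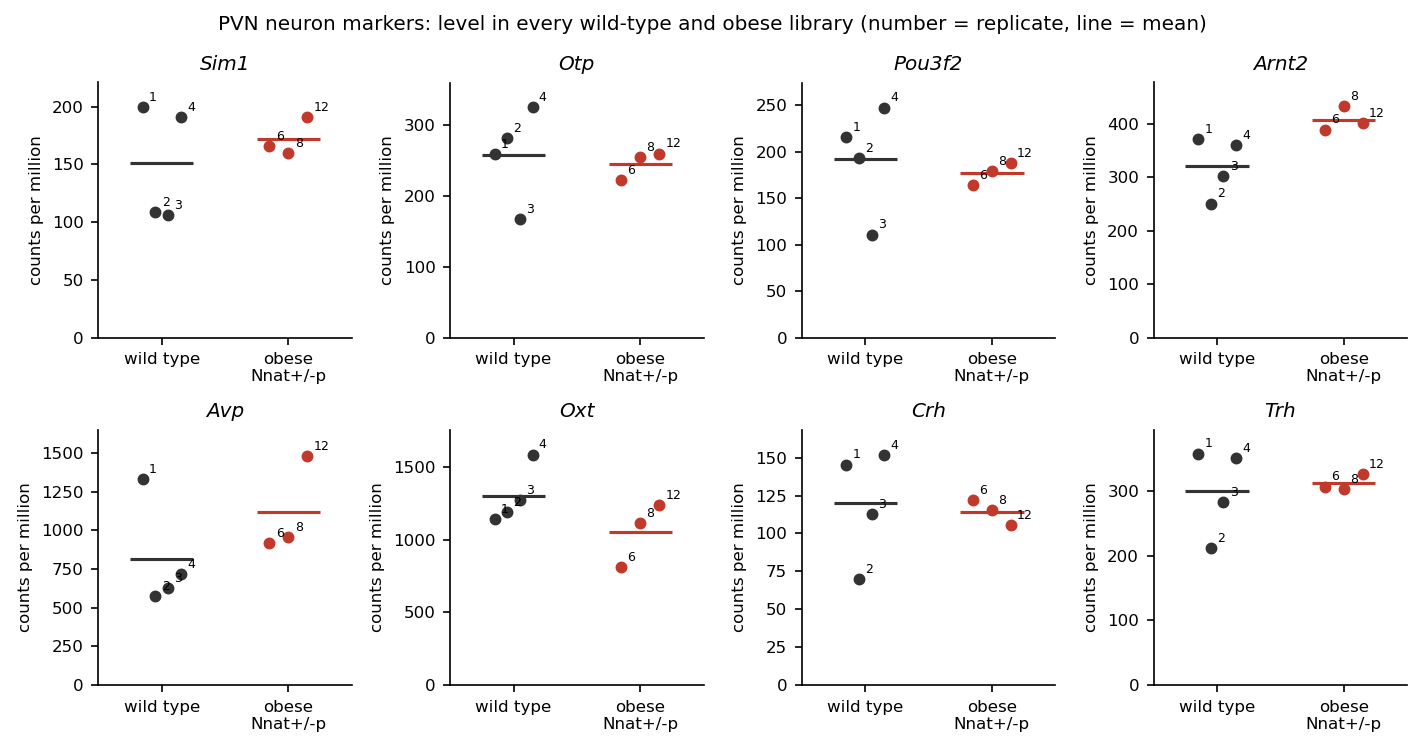
Level of 8 PVN neuron markers in CPM (vertical axes, from 0) in each of 4 wild-type and 3 obese *Nnat*+/-p female libraries, with replicate numbers and the group mean as a line. The groups overlap for every marker but *Arnt2*, and the 3 obese libraries lie close together for *Trh* while wild type runs from 212 to 358 CPM.

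Of 15485 genes tested, 2 were called, *Nnat* lower and *En2* higher, or 0.0129%. At an unadjusted p under 0.05, 120 genes (0.775%) were higher and 372 (2.40%) were lower. The median log2 difference over all genes was -0.05. In simulated data of this comparison with 15485 genes, 54.0% of the genes changed 4-fold and 10.0% of those changed 2-fold were called. The changes were placed only in genes with higher counts, and all simulated libraries shared the same mean profile apart from those changes. Genes with low counts and libraries that stood apart were thus not covered, and the shares hold for that setting only. When DESeq2 was used, 133 of 25141 genes (0.529%) were called, 17 higher and 116 lower, among them 14 with a mean of at least 20 CPM, and 21 of the 133 remained called whichever of the 7 libraries was left out. Among the 133, 77 lacked counts in at least 50% of the wild-type or of the obese libraries. With the RLE scaling in edgeR, *Nnat* alone was called. Leaving out non-obese replicate 10 called 3 genes, *Nnat*, *En2* and *Vgf*.

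*Nnat* (ENSMUSG00000067786; chromosome 2, 157560078 to 157562522, plus strand of GRCm38) was at 532, 454, 497 and 527 CPM in wild type and 1.59, 1.58 and 3.46 CPM in obese mice. The genotype labels therefore held in all 7 libraries. The log2 difference was -7.79 ± 0.70 (edgeR's quasi-likelihood test, adjusted p = 8.35e-05) and stayed called without each library in turn, with adjusted p from 0.000422 to 0.00286. *Blcap*, which spans *Nnat* on the other strand and is imprinted in brain, was at 114, 51.6, 96.6 and 116 CPM in wild type and 63.0, 81.1 and 93.1 CPM in obese mice. Its groups overlapped, with a log2 difference of -0.26 ± 0.32 (edgeR, adjusted p = 1.00).

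*En2* (chromosome 5, 28165694 to 28172166, plus strand) encodes a homeobox transcription factor known for patterning the midbrain and cerebellum. It had no count in any of the 4 wild-type libraries, and 128, 266 and 315 counts, or 11.3, 24.7 and 14.0 CPM, in the obese libraries. With 3 counts as the floor in the shallowest wild-type library, 0.546 CPM, the median obese level was at least 25.6-fold higher. The call, at adjusted p = 0.213 in edgeR, was lost when any of the 7 libraries was left out (adjusted p from 0.458 to 1.00), although the unadjusted p was never above 0.000229. It was also lost with RLE scaling (adjusted p = 0.254) and without wild-type replicates 2 and 3 together. In edgeR the adjusted p was 0.0740 with only the wild-type and obese groups and 0.0130 without non-obese replicate 10. It was 0.0429 with limma's voom and 1.36e-09 in DESeq2. *En2* was also found in the non-obese *Nnat*+/-p libraries, at 19.2, 7.37 and 1.49 CPM. Among the males, *En2* was at 6.19, 0.433 and 0 CPM in wild type and at 28.6, 4.08, 16.2 and 7.40 CPM in obese mice. Here the groups overlapped, and the log2 difference was 2.71 ± 0.98 (edgeR, unadjusted p = 0.0104, adjusted p = 1.00). Of 15 genes of the midbrain and hindbrain 5 were tested, with *En2* and *Gbx2* among them, and only *En2* was higher at an unadjusted p under 0.05. *En1*, *Hoxb2*, *Hoxb3* and *Gabra6* had no count in any of the 7 libraries. The members not tested fell below the count filter, so a change in them could not be tested.

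*Gbx2*, a homeobox gene of the anterior hindbrain and the thalamus, went the other way at an unadjusted p of 0.00702 (edgeR, adjusted p = 1.00). It was at 0.648, 11.8, 14.5 and 4.43 CPM in wild type and had no count in the 3 obese libraries. With 3 counts as the floor in the shallowest obese library, the wild-type median was at least 29.2-fold higher. The unadjusted p was 0.0406 without wild-type replicates 2 and 3. Its non-obese values were 0, 0 and 18.4 CPM, and in males the groups overlapped. *Gbx2* was the one member at an unadjusted p under 0.05 of 8 thalamus markers, against 2.40% lower over all genes. The summed level of these markers was 245 to 329 CPM in wild type and 231 to 260 CPM in obese mice. *Pde6b*, the rod phosphodiesterase beta subunit, also had no count in wild type and was at 8.55, 6.03 and 10.6 CPM in obese mice, at least 15.7-fold higher. It did not pass (edgeR, unadjusted p = 0.000813, adjusted p = 1.00), and in non-obese mice it ranged from 0.0675 to 23.8 CPM. Without replicates 2 and 3 its unadjusted p was 0.00498.

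*Vgf* (chromosome 5, 137026392 to 137033351, plus strand) encodes a secreted precursor of neuropeptides that act on energy balance. It was at 147, 151, 176 and 140 CPM in wild type and at 578, 381 and 527 CPM in obese mice. The lowest obese library was more than any wild-type library, and wild-type replicates 2 and 3 lay among the other wild-type values. The log2 difference was 1.69 ± 0.40, or 3.23-fold, at an unadjusted p of 0.000667 and an adjusted p of 1.00 in edgeR. The call depended on the other libraries in the fit: the adjusted p was 0.00315 without non-obese replicate 10, in which *Vgf* was at 67.8 CPM, and 0.0134 with only the wild-type and obese groups. In DESeq2 it was 0.137. Without wild-type replicates 2 and 3 the log2 difference was 1.78 (edgeR, adjusted p = 1.00), and without replicates 2, 3 and 10 the adjusted p was 7.05e-06. In the males, *Vgf* was at 64.5, 110 and 90.2 CPM in wild type and at 175, 221, 212 and 248 CPM in obese mice. The groups were again separate, with a log2 difference of 1.28 ± 0.25 (edgeR, adjusted p = 0.143).

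**Figure D2:**
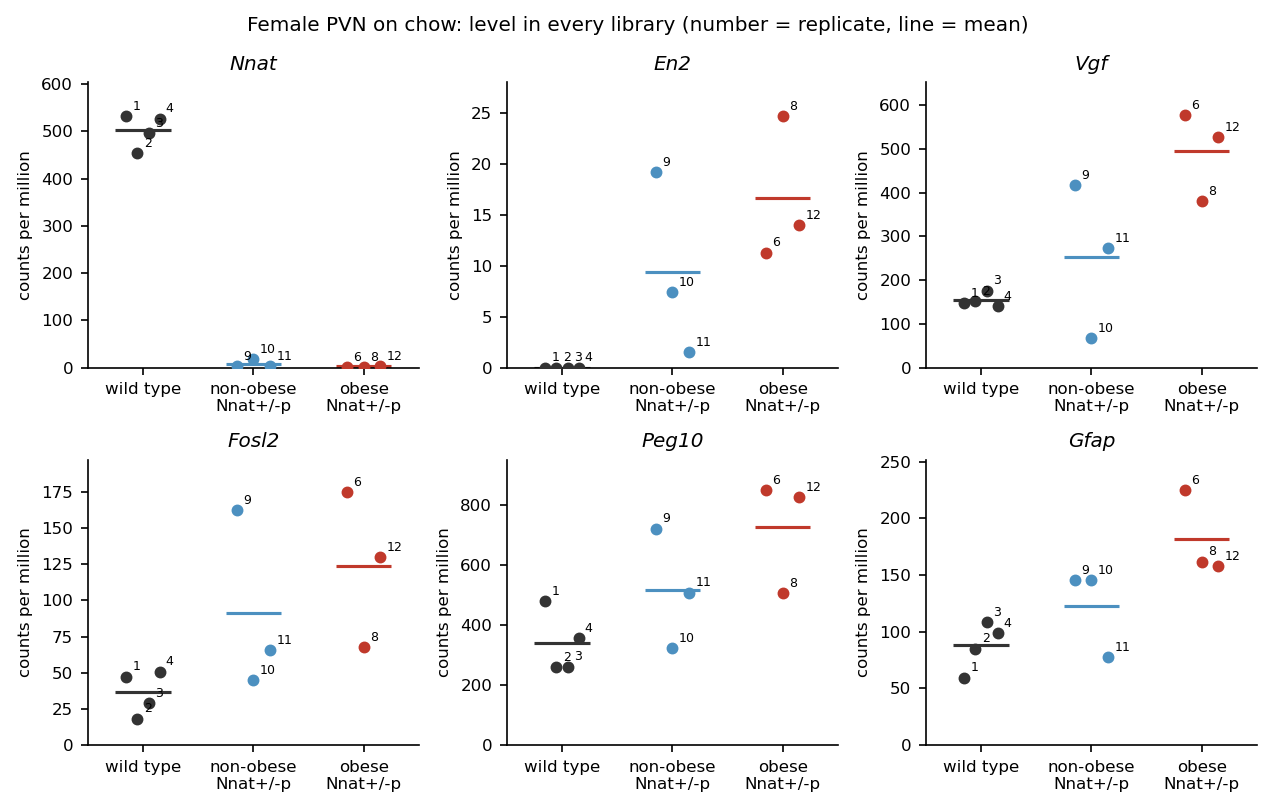
Level of 6 genes in CPM (vertical axes, from 0) in each chow-fed female PVN library, with replicate numbers and the group mean as a line. *Nnat* is at 454 to 532 CPM in wild type and under 4 CPM in obese *Nnat*+/-p mice, *En2* has no count in wild type, and for *Vgf*, *Fosl2*, *Peg10* and *Gfap* every obese library lies above every wild-type library.

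The other genes of the granin family and of prohormone processing were mostly not separated. Of 12 tested, 2 were higher at an unadjusted p under 0.05, *Vgf* and *Scg2*, and none was lower, against 0.775% higher and 2.40% lower over all genes. The median log2 difference was 0.34 against -0.05 over all genes. *Scg2*, which encodes secretogranin II, a core protein of dense secretory granules, was at 1327, 697, 1081 and 1254 CPM in wild type and at 1717, 1533 and 1748 CPM in obese mice. Wild-type replicates 2 and 3 were its 2 lowest libraries. The log2 difference of 0.61 ± 0.27 (edgeR, unadjusted p = 0.0348, adjusted p = 1.00) was 0.36 without those 2 libraries, at an unadjusted p of 0.194. The summed level of the list, 4073 to 5779 CPM in wild type and 6381 to 6693 CPM in obese mice, was lowest in the same 2 libraries, as was that of 11 pan-neuronal genes, 3012 to 4247 CPM in wild type and 4403 to 4954 CPM in obese mice. The part of the neuronal genes in the difference was not tested. *Snap25*, a synaptic vesicle fusion protein, was the one pan-neuronal gene at an unadjusted p under 0.05, with a log2 difference of 0.62 ± 0.25 that became 0.39 (unadjusted p = 0.142) without replicates 2 and 3. *Hspa5*, the main chaperone of the endoplasmic reticulum, was the one of 14 genes of the signal peptidase and endoplasmic reticulum stress to pass that level, at 0.61 ± 0.29, and it became 0.29 (unadjusted p = 0.348). None of 15 genes of endoplasmic reticulum calcium handling reached it. *Sv2c*, which encodes a synaptic vesicle glycoprotein, was at 42.3, 24.3, 43.0 and 31.1 CPM in wild type and at 108, 48.7 and 148 CPM in obese mice. Its log2 difference was 1.53 ± 0.43 (edgeR, unadjusted p = 0.00248), 1.46 without replicates 2 and 3 (unadjusted p = 0.0183) and 0.06 ± 0.39 in males.

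Of 25 gene lists, chosen with earlier results of these data known, the immediate early genes had the most members past an unadjusted p of 0.05. Their rank and share are thus a description and not a test. Of 16 tested, 7 were higher at an unadjusted p under 0.05 and none was lower, against 0.775% of all genes higher, and 15 of the 16 log2 differences were positive, with a median of 1.78. None was called at an adjusted p under 0.25 in edgeR, and with limma's voom *Egr1* and *Fosl2* were (adjusted p = 0.0459 and 0.193). Voom called 9 genes in all, and the others were *Nnat*, *En2*, *Vgf*, *Pde6b*, *Gfap*, *Peg10* and *Sv2c*, which are not in this list. The summed level of the list was 458, 280, 406 and 288 CPM in wild type and 788, 611 and 1327 CPM in obese mice. Obese replicate 12 was the highest. *Fosl2*, an AP-1 subunit, was at 47.2, 18.2, 29.1 and 50.8 CPM in wild type and at 175, 67.5 and 130 CPM in obese mice. The log2 difference was 1.76 ± 0.47 (edgeR, unadjusted p = 0.00157, adjusted p = 1.00). *Egr1*, a zinc finger factor, was at 88.9, 43.5, 73.8 and 6.89 CPM in wild type and at 157, 146 and 251 CPM in obese mice, a log2 difference of 1.79 ± 0.63. *Nr4a1*, an orphan nuclear receptor, was at 17.9, 0.368, 21.4 and 2.97 CPM in wild type and at 32.2, 54.6 and 94.6 CPM in obese mice, a 5.64-fold difference. *Arc*, a regulator of synaptic strength, was at 25.1, 0.368, 6.32 and 2.69 CPM in wild type and at 32.5, 26.9 and 50.8 CPM in obese mice, a difference of 2.07 ± 0.92. The groups did not overlap for these 4 genes, which were already picked by their p. Of the 16 tested, 6 were separate with obese mice higher, against 3.45% of all genes tested. Without wild-type replicates 2 and 3 the log2 differences in edgeR were 1.33 for *Fosl2* (unadjusted p = 0.0306), 1.94 for *Egr1* (0.0555), 2.53 for *Nr4a1* (0.0269) and 1.40 for *Arc* (0.145).

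The groups overlapped for the other 3 immediate early genes at an unadjusted p under 0.05. *Fos*, another AP-1 subunit, was at 23.4, 0.553, 33.2 and 8.67 CPM in wild type and at 32.5, 14.1 and 192 CPM in obese mice, so that replicate 12 alone stood above wild type. *Npas4*, a factor induced by synaptic activity, was at 1.33, 6.45, 9.66 and 0.0913 CPM in wild type and at 5.03, 8.17 and 68.7 CPM in obese mice, again with replicate 12 apart. *Fosb* was at 3.05, 0.184, 0 and 4.66 CPM in wild type and at 28.4, 1.21 and 55.1 CPM in obese mice. Without wild-type replicates 2 and 3 the log2 differences were 2.31 for *Fos* (edgeR, unadjusted p = 0.0723), 5.23 for *Npas4* (0.00999) and 2.87 for *Fosb* (0.153). *Btg2*, an antiproliferative gene, and *Nr4a3*, a relative of *Nr4a1*, had log2 differences of 2.04 ± 0.97 and 1.87 ± 1.25 and missed an unadjusted p of 0.05, and *Egr3* alone was negative (-0.16 ± 2.21).

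The count of immediate early genes at an unadjusted p under 0.05 depended on single libraries. It fell to 2 of 16 without obese replicate 12, with a median log2 difference of 0.80, to 3 without wild-type replicate 2 and to 4 without wild-type replicate 4, and was 5 to 8 without each of the others. Without wild-type replicates 2 and 3 it was 3 of 17, with all 17 log2 differences positive and a median of 1.94, and without replicates 2, 3 and 10 it was 11 of 17. *Fosl2* and *Egr1* kept an unadjusted p under 0.05 without each of the 7 libraries in turn. In the males, 2 of 17 were higher at that level, *Nr4a1* (2.14 ± 0.61, edgeR, unadjusted p = 0.00166) and *Jun* (0.75 ± 0.34), against 1.63% of all genes tested in males, none was lower and 14 of 17 log2 differences were positive, with a median of 0.64 against -0.01 over all genes. *Jun* was at 0.44 ± 0.34 in the females. Time of day and handling before death are not in the labels.

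**Figure D3:**
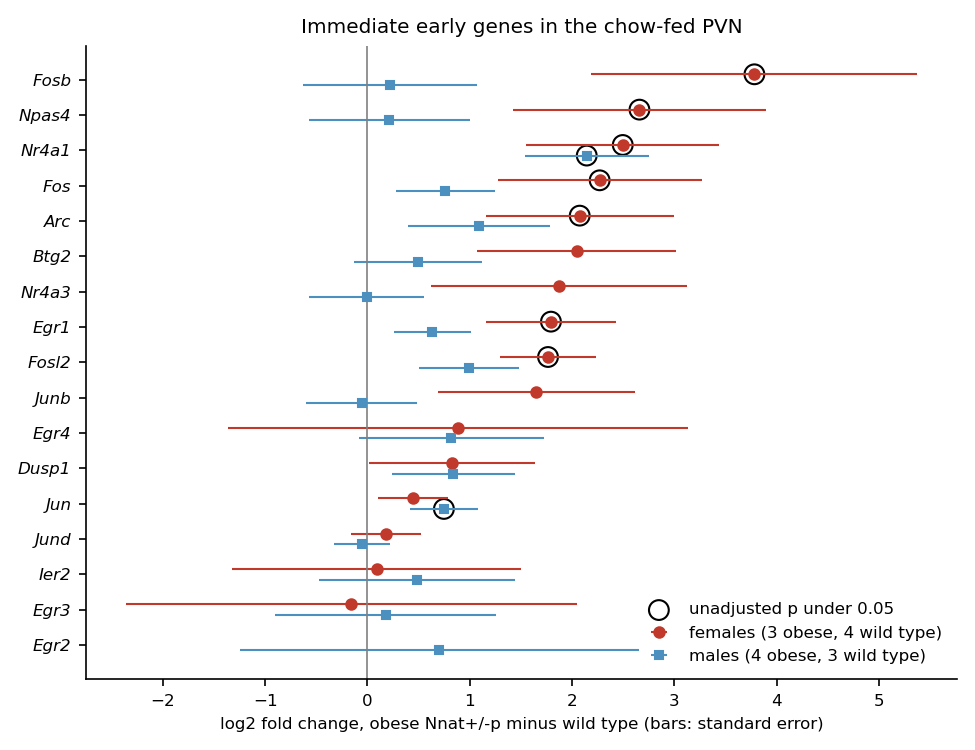
Log2 fold change of obese *Nnat*+/-p over wild type (horizontal axis, bars are standard errors) of each immediate early gene in the chow-fed PVN of females (circles) and males (squares), with rings at an unadjusted p under 0.05. In females 15 of 16 tested genes lie above 0, 7 of them ringed, and in males 2 of 17 are ringed; *Egr2* was tested in males alone.

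Promoter sequence was searched for the genes of the fixed lists that had an unadjusted p under 0.05, since immediate early and neuropeptide genes are textbook targets of CREB, which binds the cyclic AMP response element. Of 20 such genes, 12 had an entry among the RefSeq promoters of GRCm38.p6, and the 250 bases before the start site were read. The core TGACGT, on either strand, was found in 5 of the 12, *Fos*, *Npas4*, *Hspa5*, *Scg2* and *Sst*, and in 6.47% of all 32851 promoters. The lists hold textbook targets of CREB, so a share above that of all promoters was likely from the choice of genes. List members that missed that p were not searched, and a part of CREB in these differences was not tested. *Fos*, *Npas4*, *Scg2* and *Sst* are shown, 5′ to 3′ on the strand of the gene, because they span the activity genes and the peptide precursors. Capitals mark the core on either strand, and where both strands match and overlap they join into the palindrome TGACGTCA, which 1.55% of all promoters hold. The windows are chr12:85473640-85473889 (plus strand) for *Fos*, chr19:4989972-4990221 (minus) for *Npas4*, chr1:79440027-79440276 (minus) for *Scg2* and chr16:23890845-23891094 (minus) for *Sst*.
Fos: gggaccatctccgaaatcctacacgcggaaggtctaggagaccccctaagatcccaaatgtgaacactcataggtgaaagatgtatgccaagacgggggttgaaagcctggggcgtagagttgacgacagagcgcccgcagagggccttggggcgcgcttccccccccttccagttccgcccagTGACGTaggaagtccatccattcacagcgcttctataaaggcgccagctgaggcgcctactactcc
Npas4: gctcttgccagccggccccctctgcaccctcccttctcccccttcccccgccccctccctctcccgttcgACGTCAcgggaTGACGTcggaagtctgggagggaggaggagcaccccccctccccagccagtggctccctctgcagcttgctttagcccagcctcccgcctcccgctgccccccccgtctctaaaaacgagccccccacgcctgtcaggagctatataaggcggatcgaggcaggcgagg
Scg2: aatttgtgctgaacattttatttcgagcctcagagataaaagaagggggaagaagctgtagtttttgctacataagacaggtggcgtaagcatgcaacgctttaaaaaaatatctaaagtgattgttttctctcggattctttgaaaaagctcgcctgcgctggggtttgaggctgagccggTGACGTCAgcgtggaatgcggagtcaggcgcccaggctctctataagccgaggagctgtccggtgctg
Sst: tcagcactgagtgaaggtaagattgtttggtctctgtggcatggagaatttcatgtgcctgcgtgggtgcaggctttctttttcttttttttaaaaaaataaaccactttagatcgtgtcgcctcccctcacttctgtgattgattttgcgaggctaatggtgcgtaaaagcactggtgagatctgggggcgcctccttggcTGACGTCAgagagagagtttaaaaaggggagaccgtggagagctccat
The first match began 66 bases before the start site in *Fos*, 180 in *Npas4*, 68 in *Scg2* and 48 in *Sst*. *Fos*, *Npas4* and *Scg2* had positive log2 differences and *Sst* a negative one, so the letters did not go with 1 direction.

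*Sst*, which encodes the inhibitory peptide somatostatin, was at 114, 151, 296 and 182 CPM in wild type and at 111, 74.5 and 79.2 CPM in obese mice. Every obese library was below every wild-type library, by a narrow margin for replicate 6. The log2 difference was -1.07 ± 0.34 (edgeR, unadjusted p = 0.00609, adjusted p = 1.00) and -0.75 without wild-type replicates 2 and 3, at an unadjusted p of 0.0446. Males, at 40.2, 61.6 and 87.7 CPM in wild type and 2.07, 40.2, 10.4 and 38.1 CPM in obese mice, had a difference of -1.47 ± 0.57 (edgeR, unadjusted p = 0.0165, adjusted p = 1.00). *Penk*, the precursor of the enkephalins, was at 142, 111, 53.9 and 114 CPM in wild type and at 180, 204 and 172 CPM in obese mice. Its log2 difference was 0.81 ± 0.34 in females (edgeR, unadjusted p = 0.0295), 0.53 without replicates 2 and 3 (unadjusted p = 0.154) and 0.65 ± 0.29 in males. These were the 2 of 15 hypothalamic neuropeptides tested at an unadjusted p under 0.05, against 0.775% higher and 2.40% lower over all genes.

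*Peg10*, a paternally expressed gene derived from a retrotransposon, was at 478, 259, 261 and 356 CPM in wild type and at 849, 507 and 826 CPM in obese mice. The lowest obese library lay just above the highest wild-type library. The log2 difference was 1.10 ± 0.31, or 2.15-fold (edgeR, unadjusted p = 0.00255, adjusted p = 1.00), and 0.80 without wild-type replicates 2 and 3 (unadjusted p = 0.0448). In males it was 0.79 ± 0.26, with 188 to 229 CPM in wild type and 338 to 411 CPM in obese mice. Of 29 imprinted genes other than *Nnat*, 2 were higher at an unadjusted p under 0.05, *Peg10* and *Usp29*, a paternally expressed ubiquitin protease gene at 0.62 ± 0.28, and none was lower. Over all genes tested, 0.775% were higher and 2.40% lower at that level. *Usp29* was at 0.31 without replicates 2 and 3, at an unadjusted p of 0.271.

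*Gfap*, the intermediate filament of astrocytes, was at 59.6, 85.1, 109 and 99.0 CPM in wild type and at 225, 162 and 158 CPM in obese mice. The groups did not overlap, and the log2 difference was 1.04 ± 0.30, or 2.06-fold (edgeR, unadjusted p = 0.00325, adjusted p = 1.00). Without wild-type replicates 2 and 3 it was 1.19 (unadjusted p = 0.00688). The males were at 49.5, 80.9 and 41.8 CPM in wild type and 124, 191, 99.4 and 122 CPM in obese mice, again without overlap, a difference of 1.23 ± 0.31 (edgeR, unadjusted p = 0.000578, adjusted p = 0.607). *Gfap* was the one of 10 astrocyte markers at an unadjusted p under 0.05, against 0.775% higher and 2.40% lower over all genes. The median of the list was 0.00. *Vim*, another intermediate filament, was at -0.02 ± 0.52, and the summed level of the list was 2218 to 2759 CPM in wild type and 2513 to 3297 CPM in obese mice.

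Markers of other cells mostly did not pass. Over all genes tested, 0.775% were higher and 2.40% lower at an unadjusted p under 0.05, so none in a short list is near that share. None of 10 oligodendrocyte, 10 microglia, 5 forebrain excitatory neuron, 8 neighbouring hypothalamic nuclei, 4 ependymal and tanycyte, 4 choroid plexus and 5 blood cell markers tested had an unadjusted p under 0.05. *Cdh5*, the cadherin of endothelial junctions, was the one of 10 vascular markers, at -1.13 ± 0.50, and was -0.36 (unadjusted p = 0.487) without wild-type replicates 2 and 3. The vascular markers summed to 419 to 628 CPM in wild type, highest in replicate 2, and to 354 to 460 CPM in obese mice. Of the genes for energy balance, none of 22 appetite receptors, 16 of insulin and leptin signalling, 11 of glucocorticoid action, 7 sex steroid and prolactin receptors and 4 uncoupling proteins reached that level. *Clock*, a core clock factor, was the one of 15 circadian genes, at 62.2, 55.3, 58.1 and 65.4 CPM in wild type and 99.0, 91.4 and 92.9 CPM in obese mice. Its groups were far apart for their spread, but the difference of 0.65 ± 0.29 had an unadjusted p of 0.0412 with the shared variance and exceeded 0.05 without each of the 7 libraries. Without replicates 2 and 3 together it was 0.56 (edgeR, unadjusted p = 0.0995).

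**Figure D4:**
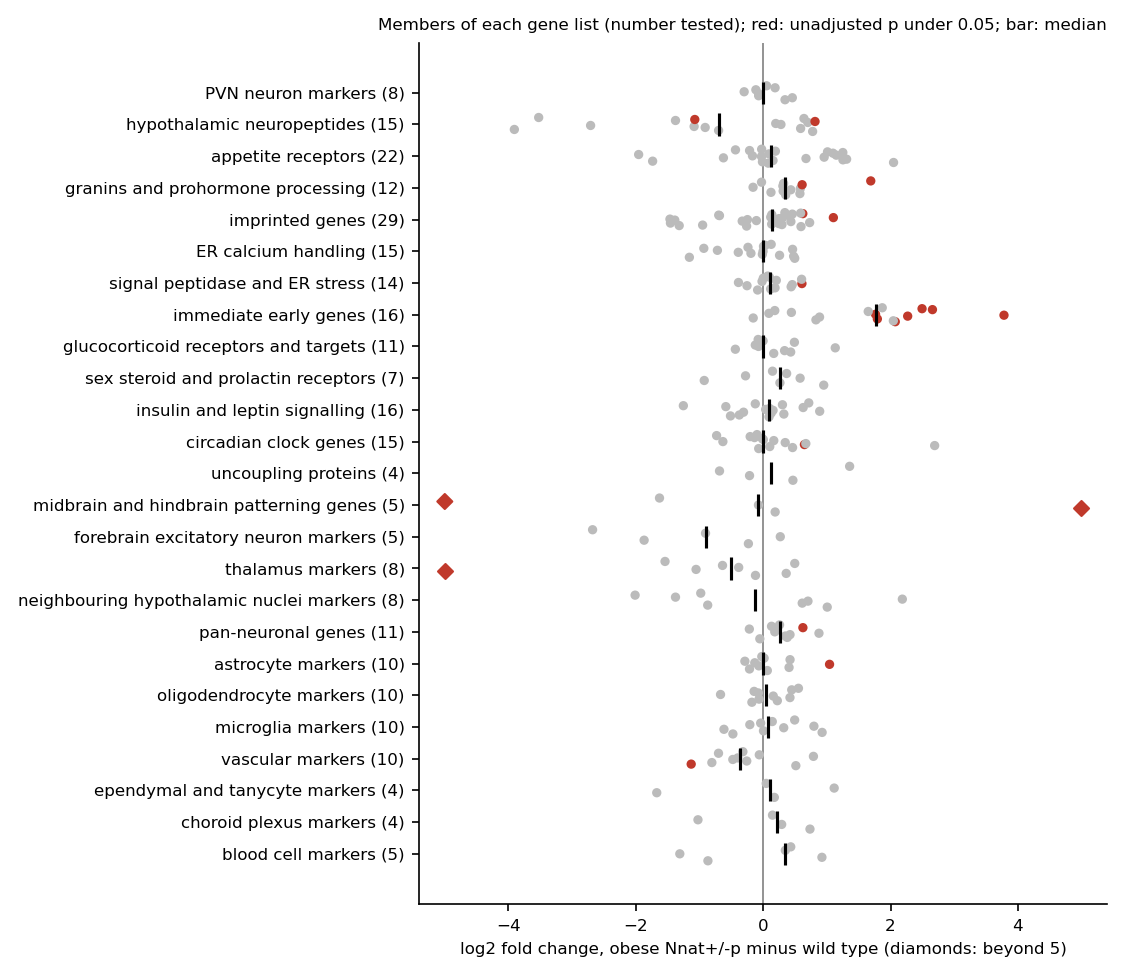
Log2 fold change of obese *Nnat*+/-p over wild type in the female PVN (horizontal axis) of every tested member of 25 gene lists, with the number tested, red points at an unadjusted p under 0.05 and a bar at the median. The immediate early genes have a median of 1.78 and 7 of 16 red points, 14 lists have no red point, and the diamonds at the edges are *En2* and *Gbx2*.

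Further genes chosen by name did not pass the test in females. They were chosen with earlier results of these data known. From the same male data, the study reports lower *Nrgn* in obese mice and places *Ntsr1* in a group of correlated genes. Large male values were thus likely from the choice, and the test between the sexes is given below. *Ucp2*, a mitochondrial carrier, was at 58.3 to 97.5 CPM in wild type and 32.9 to 66.2 CPM in obese mice, with a log2 difference of -0.69 ± 0.39 in females and -1.15 ± 0.30 in males. *Glp1r*, the receptor of glucagon-like peptide 1, was at 0.96 ± 0.71 in females and 3.92 ± 0.68 in males, and *Nrgn*, neurogranin, at 0.27 ± 0.62 and -2.84 ± 0.55. *Npy*, the orexigenic neuropeptide Y, did not exceed 3.83 CPM, and *Ntsr1*, the main neurotensin receptor, did not exceed 3.47 CPM in the 7 libraries. *Tbx3* was at -0.98 ± 0.92.

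Most genes lower in obese mice were highest in 2 wild-type libraries. Of the 372 at an unadjusted p under 0.05, 351 (94.4%) had their highest wild-type value in replicate 2 or 3, against 57.8% of all genes tested, and in DESeq2 the same held for 112 of the 116 called lower. Without both libraries, 306 of the 372 passed the filter and were tested, and 49 kept an unadjusted p under 0.05 in the same direction. All 120 higher genes were tested, and 29 kept it. All genes lower at that level that are named here other than *Nnat*, 15 in number, were highest in replicate 2 or 3. *Scarna2*, a small RNA of Cajal bodies, was at 49.5, 322, 179 and 58.4 CPM in wild type and at 40.0, 33.2 and 25.6 CPM in obese mice. Its log2 difference was -2.21 ± 0.64 (edgeR, unadjusted p = 0.00322, adjusted p = 1.00) and -0.72 without replicates 2 and 3 (unadjusted p = 0.226). *Map4k2*, a kinase gene, was at 46.8, 191, 179 and 40.6 CPM in wild type and at 21.6, 34.8 and 41.1 CPM in obese mice. Its log2 difference was -1.81 ± 0.59 (edgeR, unadjusted p = 0.00715, adjusted p = 1.00) and -0.43 without the same 2 libraries (unadjusted p = 0.435). Small nuclear and nucleolar RNAs took 0.371% and 0.149% of the counts of replicates 2 and 3 and 0.0250% to 0.0718% in the other 5.

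The same 2 libraries were the highest for *Zfp512b*, *Gm10800*, *Gm22442* and *CT010467.1*, with log2 differences of -1.90 to -3.66 that shrank to between -0.37 and -1.55 without them. *Marveld1*, which encodes a MARVEL-domain membrane protein, was at 9.83, 41.1, 17.5 and 14.3 CPM in wild type and at 1.68, 1.67 and 2.71 CPM in obese mice. It remained at -2.58 without replicates 2 and 3 (unadjusted p = 0.0250), so that both remaining wild-type libraries also lay above the obese ones. *Flt3l*, *Hrc*, *Cplx3*, *Myo1g* and *Gm24146* were also at or near 0 in obese mice, with wild-type values in replicates 1 and 4 of 0.228 to 2.78 CPM. Without replicates 2 and 3 the unadjusted p was 0.0326 for *Flt3l*, 0.0721 for *Hrc*, 0.0373 for *Cplx3* and 0.0259 for *Gm24146* in edgeR, and *Myo1g* was not tested.

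**Figure D5:**
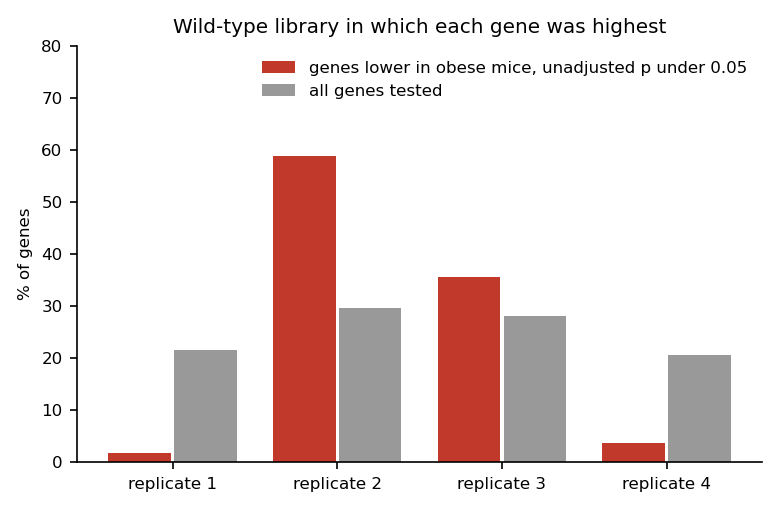
Share of genes (vertical axis, %) whose highest wild-type value lay in each of the 4 wild-type libraries, for genes lower in obese *Nnat*+/-p females at an unadjusted p under 0.05 and for all genes tested. Replicates 2 and 3 hold 58.9% and 35.5% of the lower genes, and 29.7% and 28.1% of all genes.

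Wild-type replicates 2 and 3 were the 2 lowest libraries for *Plekhb1* and *Nrsn1*, among the higher genes. *Plekhb1*, a membrane-associated protein gene, was at 79.2, 31.3, 53.5 and 82.4 CPM in wild type and at 117, 145 and 111 CPM in obese mice. *Nrsn1*, which encodes neurensin 1 of neuronal vesicles, was at 178, 86.0, 97.9 and 141 CPM in wild type and at 221, 232 and 209 CPM in obese mice. For both, every obese library also lay above wild-type replicates 1 and 4, and the log2 differences of 1.01 ± 0.33 and 0.81 ± 0.27 were 0.62 (edgeR, unadjusted p = 0.0437) and 0.46 (0.0702) without replicates 2 and 3. *Cebpd*, a C/EBP transcription factor induced by stress and inflammation, was at no more than 0.305 CPM in wild type and at 20.5, 2.78 and 8.43 CPM in obese mice. Without replicates 2 and 3 its unadjusted p was 0.0201, and in males its groups overlapped. The gene models *Gm44397* and *Gm14399* had no count in wild type and ranged from 0 to 29.2 and from 0.133 to 6.17 CPM in obese mice.

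The test of whether the difference between obese *Nnat*+/-p and wild type was itself different in females and males called none of 16869 genes in edgeR, with 977 (5.79%) at an unadjusted p under 0.05. Sex and sequencing pool cannot be told apart here. *En2* and *Gbx2* had the smallest p-values, 0.000236 and 0.000255, each with adjusted p = 0.845. The log2 difference in females minus that in males was 0.40 for *Vgf*, 0.29 for *Peg10*, -0.20 for *Gfap*, 0.32 for *Nr4a1* and 0.39 for *Sst*, with an unadjusted p of 0.239 for *Vgf* and larger for the others.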

How the data were processed

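Nuclei were cut by laser, and 500 pg of total RNA per sample was made into a library with a stranded low-input kit and read as single-end reads of 50 bases. The submitters' processing notes name STAR 2.5.0a and GRCm38, and the counting tool, annotation and strand setting are not given in the sources used here. The deposited values are the authors' raw read counts for 53379 Ensembl genes, of which 53274 were named from GENCODE release 21 for mouse. If strand was not used in counting, reads of *Nnat* and *Blcap*, on opposite strands, cannot be told apart.

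A library was not used where its total was below 25% of the median in its table. The 3 chow-fed female subgroups were fitted together in R 4.3.3 with edgeR 4.0.16 (filterByExpr with a minimum count of 10, TMM, quasi-likelihood test), with Benjamini-Hochberg adjustment over all genes tested. The common biological coefficient of variation was 93.3%. The floor of 3 counts covers counting error only. Males were fitted alike, and the sexes were compared through an interaction term. On simulated data 25.0% of calls were false. Alternatives included DESeq2 1.42.0 and limma 3.58.1.

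The members and 25 gene lists were chosen with earlier results of these data known. Named genes were *Nnat*, *Blcap*, called genes, the 10 smallest p in each direction, the 8 smallest at a mean of 20 CPM or more, list members at an unadjusted p under 0.05, PVN neuron markers and 7 further genes chosen by name. Of these, 1 gene is not reported here. The fits without replicates 2, 3 and 10 in combination, and DESeq2 without single libraries, were added after the data were seen.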

Additional observations from a re-analysis of the deposited data

Results flagged for a closer look

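In wild-type replicate 2, *Cplx3*, a complexin gene, was at 21.6 CPM and *Nrgn* was at 48.3 CPM. Each lay far from the other 3 wild-type libraries, at 0.876 to 2.35 CPM and 11.3 to 14.2 CPM, by Dixon's gap test at its 95% critical value. This test was run on the wild-type values of each named gene, 57 in all, and chance flags about 1 in 20. Groups of 3 libraries were not tested.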

How the results depend on the processing

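*Nnat* was lower and called under every alternative. The 2 genes called became 1 at an adjusted p under 0.05, 1 with RLE scaling, 1 to 1 without each library in turn, 1 without wild-type replicates 2 and 3 together, 3 with only the 2 groups compared, 3 without non-obese replicate 10, 8 without replicates 2, 3 and 10 together, 9 with limma's voom and quality weights, 107 when each gene with more than 1 count in total was kept, 133 with DESeq2 and 936 with all labelled libraries, which adds replicates 5 and 7 at 2302 and 812815 counts. In DESeq2, leaving out 1 library gave 108 to 490 calls. The interaction with sex called 0 to 1 genes without each library in turn. The 1 gene, *CT010467.1* (adjusted p = 0.0568), was called without wild-type replicate 1. No paired analysis was possible because the labels give no litter or batch. The study compared littermates, but which libraries share a litter is not labelled, and the part of litter was not tested.

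Of 968 log2 differences of named genes under the alternatives, 31 changed sign, in genes with an adjusted p of 1.00. With all labelled libraries *Gm10800* was 0.74, *Myo1g* 0.94, *Trh* -0.048, *Ucp2* 1.35 and *Vim* 0.28. With voom *Sim1* was -0.024, *Trh* -0.097 and *Egr3* 3.87. Without wild-type replicates 2 and 3 together *Sim1* was -0.18, *Trh* -0.19, *Meg3* 0.35 and *Egr3* 5.75, and without replicates 2, 3 and 10 *Sim1* was -0.19, *Trh* -0.19, *Meg3* 0.34 and *Egr3* 5.77. Without each library in turn the log2 differences ran from -0.26 to 0.059 for *Crh*, -0.23 to 0.055 for *Otp*, -0.31 to 0.028 for *Pou3f2*, -0.084 to 0.13 for *Trh*, -0.10 to 1.05 for *Nrgn*, -1.49 to 0.57 for *Ntsr1*, -0.12 to 0.10 for *Vim* and -0.59 to 0.86 for *Egr3*. The causes were not tested. The comparison has 4 against 3 libraries, and the part of depth in what was called was not tested.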
